A study of Anser cygnoides with 6 samples.

Results

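The insulin-like growth factor (IGF) binding protein family made up 16 of the 21009 mRNA gene models measured in lion-head goose liver. A model was a member if its Gene Ontology entry held the term for IGF binding, or if its description named an IGF-binding protein. All 16 members carried the term, and 0 were found by the wording of the description. The birds were 3 high-intake-fed and 3 normally-fed geese of the purebred lion-head line of Anser cygnoides, and all were 120 days old when feeding began. The high-intake-fed birds were force-fed several meals a day in the manner of foie gras production, with boiled rice in the diet, and the normally-fed birds ate as they pleased. Feeding ended on day 38, when feed was withheld overnight from both groups. Each group had its own enclosure, so feeding and enclosure cannot be told apart. Each library came from a single bird. The study used birds of both sexes, but the sex of each sequenced bird was not among the labels or methods.

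IGFs are secreted growth factors related to insulin, and most of the IGF in blood is bound by IGF binding proteins, which set its half-life and its access to the IGF receptor. The liver is the main source of circulating IGF in vertebrates. In mammals, hepatocytes make IGFBP1 and IGFBP2, whose transcripts are known to be high in fasting and low after insulin, whereas IGFBP3, IGFBP5, IGFBP7 and the CCN proteins are made more by stellate and endothelial cells.

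The members fell into 5 classes. The 5 classical IGF binding proteins IGFBP1 to IGFBP5 were the members with a thyroglobulin type 1 domain in their description. The IGFBP7 and mac25 type held 3 members with a Kazal domain, namely IGFBP7, KAZALD1 and an unnamed model. The CCN class, matricellular proteins whose first domain resembles that of the IGF binding proteins, held 5 members with a cystine knot domain. The HTRA serine proteases HTRA1 and HTRA3, which carry an IGF binding protein-like domain before the protease, were 2 members, and ESM1, a proteoglycan secreted by endothelial cells, stood alone in its class. An IGF binding protein domain was listed for 13 of the 16 members. It was not listed for the IGFBP1 model, which had 462 bp of coding sequence and may hold only part of the gene, nor for KAZALD1 and the unnamed mac25-type model.

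Descriptions alone named 5 members (CCN1, CCN2 with a second CCN2 model, HTRA1 and HTRA3). Neighbouring genes in the RefSeq annotation of another goose assembly named 9 more, and 2 members stayed unnamed. For each of the 9, 3 of 3 listed neighbours lay within 15 models in both annotations. The listed neighbours were a picked few of those around each model, so this match is not an independent check of the name. The order of the neighbours was not compared. Positions are those of the deposited table, and the sources used here do not give its genome build. IGFBP3 (scaffold 2, 58408778 to 58422339, plus strand) and IGFBP1 (58432242 to 58436968, minus strand) lay tail to tail with 9.9 kb between them. IGFBP2 (scaffold 7, 29597746 to 29651339, plus strand) and IGFBP5 (29659801 to 29677895, minus strand) lay in the same arrangement, 8.5 kb apart. Genes this close have most neighbours in common. The neighbour check by itself therefore does not settle which model of a pair carries which name. IGFBP4 lay on scaffold 30 (1633061 to 1639666, plus strand) and IGFBP7 on scaffold 5 (74905342 to 74924696, minus strand).

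The libraries held 14154910 to 16993373 counts over all models. The log2 profiles of the high-intake-fed birds correlated with each other at 0.927 to 0.947, and those of the normally-fed birds at 0.968 to 0.973. Between the groups the range was 0.917 to 0.938, which overlaps that within the high-intake-fed birds. The tissue label was checked against hepatocyte markers, and albumin (ALB) averaged 143800 ± 63290 CPM (counts per 1000000 of a library, scaled by TMM factors) in high-intake-fed birds and 195500 ± 41680 CPM in normally-fed birds (SD, n = 3 each). The filter on low counts asked for about 10 counts in 3 libraries. It kept 12914 models and 12 of the 16 members, of which 9 were over the minimum in all 6 libraries. IGFBP2 was over it in 2 high-intake-fed and 3 normally-fed birds.

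Of the 12 members tested, 2 fell in high-intake-fed liver at an adjusted p under 0.05, IGFBP1 and IGFBP2, and 0 rose (edgeR). At an unadjusted p under 0.05, 6 were lower and 1, HTRA1, was higher, against 9.71% lower and 8.67% higher over all models. DESeq2 called 4 lower and HTRA1 higher, against 3.69% lower and 3.36% higher of the 13304 models to which it gave an adjusted p. Over all 12914 models, 190 (1.47%) were called by edgeR at an adjusted p under 0.05, of which 107 (0.829%) fell and 83 (0.643%) rose. The fitted log2 fold change of high-intake-fed over normally-fed birds was below 0 in 11 of the 12 members, with a median of -1.03, against a median of 0.036 over all models tested. In 6 of the 12 members every high-intake-fed bird lay below every normally-fed bird, and in 0 every bird lay above. Over all models tested, 13.3% had all high-intake-fed birds below and 11.1% had them all above. These libraries are from whole liver, in which fewer cells of a type and less RNA per cell cannot be told apart.

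**Figure D1:**
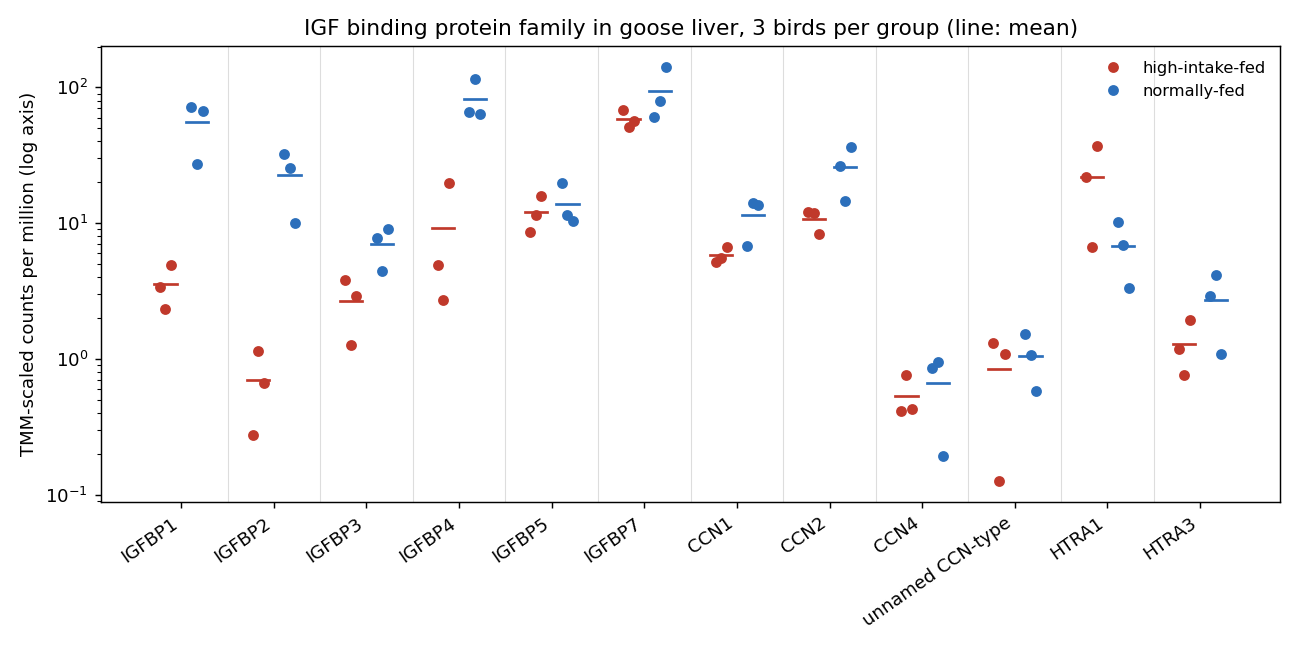
TMM-scaled CPM (log axis) of the 12 members tested in each of the 6 birds, with high-intake-fed birds in red to the left of normally-fed birds in blue and a line at each group mean. IGFBP1 lay between 2.35 and 4.93 CPM in high-intake-fed birds, against 27.2 to 72.1 CPM in normally-fed birds, and IGFBP5 overlapped between the groups.

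IGFBP1, secreted by hepatocytes and known in mammals to be high in fasting and low after insulin, had 3.41, 2.35 and 4.93 CPM in the high-intake-fed birds. The normally-fed birds had 72.1, 27.2 and 66.6 CPM. Every high-intake-fed bird was far below the lowest normally-fed bird. The fitted fold change was 15.5-fold lower in high-intake-fed liver (log2 fold change -3.95 ± 0.45 SE, edgeR adjusted p = 0.0106). It was the 12th lowest log2 fold change of the 12914 models. The model is short, but the same 6 birds were counted on the same model, so its length does not enter the fold change.

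IGFBP2, a circulating binding protein known to respond to fasting, had 0.278, 1.14 and 0.669 CPM in the high-intake-fed birds, or 4, 18 and 11 counts. The normally-fed birds had 32.3, 25.4 and 10.1 CPM, from 486, 430 and 157 counts. The groups did not overlap, and the lowest normally-fed bird had several times the level of the highest high-intake-fed bird. The fitted fold change was 31.8-fold lower in high-intake-fed liver (log2 fold change -4.99 ± 0.60 SE, edgeR adjusted p = 0.0125), and 4 models of the 12914 had a lower one. On log2(FPKM + 1) values the difference was -2.36 with a limma adjusted p of 0.0893, and in the other 13 of 14 alternative settings IGFBP2 was called.

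IGFBP4, which holds IGF in tissues and releases it when cleaved by pappalysin, was the next lowest. It had 4.94, 2.73 and 19.9 CPM in the high-intake-fed birds, and 65.7, 116 and 63.8 CPM in the normally-fed birds. The groups did not overlap, but the third high-intake-fed bird was well above the other two of its group. The log2 fold change was -3.15 ± 0.70 SE with an edgeR adjusted p of 0.0735, so IGFBP4 was not called. Without the third high-intake-fed bird it was -4.42 with an adjusted p of 0.0130. It was also called by DESeq2 (adjusted p = 1.02e-05), by limma on log2(CPM + 1) (adjusted p = 0.0371) and without the filter on low counts (edgeR adjusted p = 0.0224). In all, 4 of 14 alternative settings called IGFBP4. With any other bird left out it was not called, at edgeR adjusted p-values of 0.0912 to 0.218.

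IGFBP3, the main carrier of IGF in mammalian blood, had 3.82, 1.27 and 2.92 CPM in the high-intake-fed birds, and 7.77, 4.43 and 9.02 CPM in the normally-fed birds. All high-intake-fed values were lower, and the gap between the groups was narrow. The log2 fold change was -1.40 ± 0.46 SE with an edgeR adjusted p of 0.167. IGFBP5, an extracellular matrix-bound form, had 8.69, 11.6 and 15.8 CPM in the high-intake-fed birds, and 19.7, 11.5 and 10.4 CPM in the normally-fed birds. Its groups overlapped, and its log2 fold change was -0.21 ± 0.33 SE (edgeR adjusted p = 0.796).

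**Figure D2:**
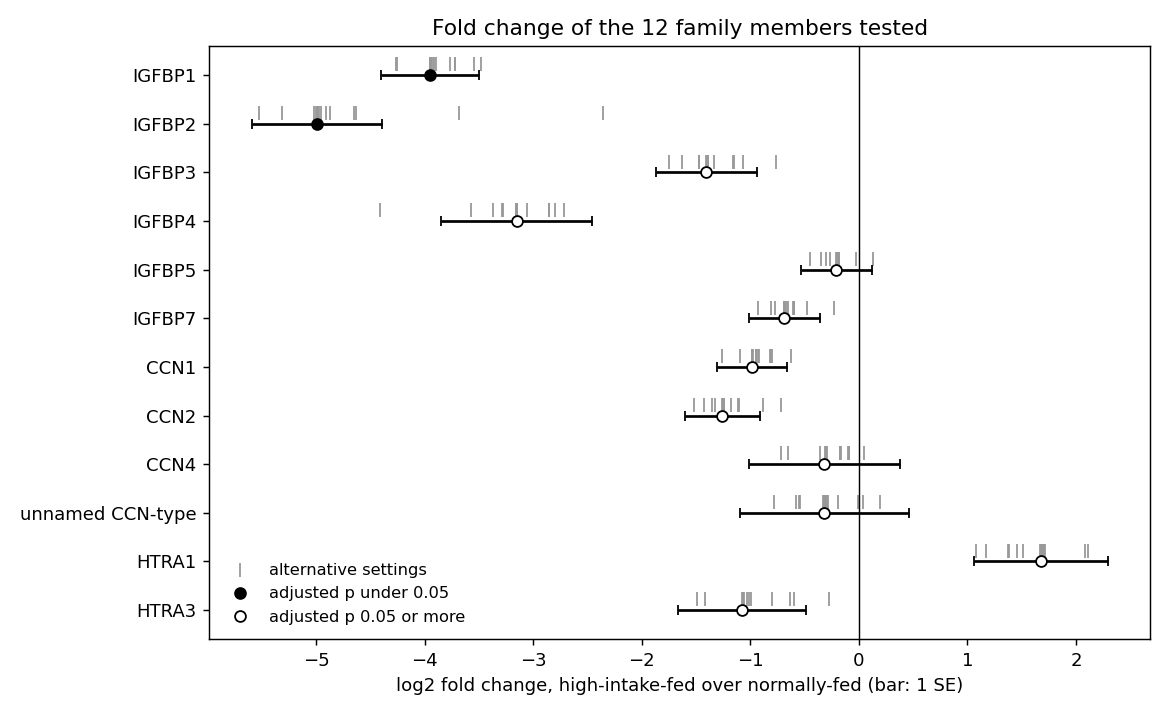
Log2 fold change of high-intake-fed over normally-fed birds for the 12 members tested (points with bars of 1 SE, filled where the adjusted p is under 0.05), with the values under each alternative setting as grey ticks. IGFBP1 (-3.95) and IGFBP2 (-4.99) are the filled points, and HTRA1 (1.68) is the member to the right of 0.

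The neighbouring genes of each pair differed in their fold changes. The ratio of IGFBP2 to IGFBP5, both per kilobase of coding length, was 0.0223, 0.0690 and 0.0295 in the high-intake-fed birds, and 1.14, 1.54 and 0.676 in the normally-fed birds. IGFBP2 was thus the minor gene of the pair in each high-intake-fed bird and near IGFBP5 in each normally-fed bird on this scale. By the deposited FPKM, IGFBP2 was below IGFBP5 in each normally-fed bird, at 7.67, 6.74 and 2.21 against 10.3, 6.98 and 5.98. The mean log2 ratio per kilobase was -4.81 in high-intake-fed and 0.083 in normally-fed birds. The difference was -4.89 with an exact two-sided permutation p of 0.1, the smallest that 3 birds against 3 allow. The ratio of IGFBP1 to IGFBP3 was 1.67, 3.46 and 3.16 in the high-intake-fed birds, and 17.3, 11.5 and 13.8 in the normally-fed birds. Its mean log2 ratio was 1.40 in high-intake-fed and 3.81 in normally-fed birds, a difference of -2.41 (exact two-sided permutation p = 0.1).

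Levels of different genes were compared per kilobase of coding length. Summed over IGFBP1 to IGFBP5, the level was 28.7, 25.1 and 58.1 CPM per kilobase in the high-intake-fed birds, and 296.2, 240.0 and 253 CPM per kilobase in the normally-fed birds. The groups did not overlap, and the third high-intake-fed bird was the highest of its group. IGFBP5 took 37.4%, 56.9% and 33.6% of this sum in the high-intake-fed birds, and 8.22%, 5.93% and 5.10% in the normally-fed birds. IGFBP1 took 25.7%, 20.3% and 18.4% in the high-intake-fed birds, and 52.7%, 24.6% and 57.0% in the normally-fed birds. The share of IGFBP1 thus overlapped between the groups. IGFBP4 also overlapped in its share, with 13.1% to 41.2% in high-intake-fed and 26.7% to 58.3% in normally-fed birds. So did IGFBP2, with 0.834% to 3.92% in high-intake-fed and 3.45% to 9.39% in normally-fed birds. IGFBP3 took 5.82% to 15.4% in high-intake-fed and 2.14% to 4.13% in normally-fed birds. By the deposited FPKM the shares of IGFBP1 were smaller, at 6.95% to 16.6% in high-intake-fed and 21.2% to 55.7% in normally-fed birds, and those of IGFBP5 were larger, at 48.6% to 70.4% in high-intake-fed and 8.63% to 16.68% in normally-fed birds. The shares of IGFBP3 overlapped by FPKM, at 3.10% to 9.12% in high-intake-fed and 1.89% to 3.63% in normally-fed birds. On both scales the sum of the 5 genes was smaller in high-intake-fed birds, and IGFBP5, whose own level overlapped between the groups, took a larger part of it.

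**Figure D3:**
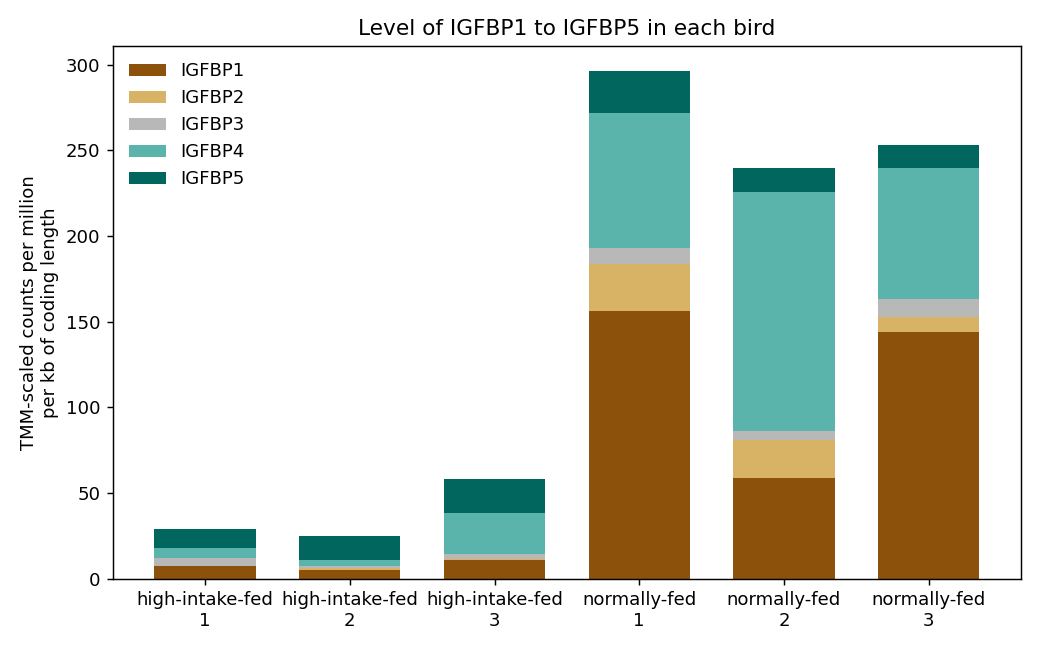
Stacked levels of IGFBP1 to IGFBP5 in each bird, in TMM-scaled CPM per kilobase of coding length, with the 3 high-intake-fed birds left of the 3 normally-fed birds. The bars reach 25.1 to 58.1 in high-intake-fed birds and 240.0 to 296.2 in normally-fed birds, where IGFBP1 and IGFBP4 make up most of the height.

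Across all 16 members the order of levels differed between the groups. In high-intake-fed liver IGFBP7 was the highest, with 65.0 ± 9.53 CPM per kilobase (SD, n = 3), and its range did not overlap that of the next member, HTRA1 at 26.2 ± 18.1. IGFBP5 (14.8 ± 4.42), IGFBP4 (11.1 ± 11.2), CCN2 (10.3 ± 2.00), IGFBP1 (7.71 ± 2.80) and CCN1 (5.15 ± 0.69) followed, each overlapping its neighbour in the order. In normally-fed liver IGFBP1 (120 ± 52.9), IGFBP7 (105 ± 47.7) and IGFBP4 (98.5 ± 35.7) had overlapping ranges and stood clear of CCN2 (24.7 ± 10.6), the member after them. IGFBP2 was 11th of the 16 in high-intake-fed liver with 0.60 ± 0.37 CPM per kilobase, and 5th in normally-fed liver with 19.5 ± 9.78. The IGFBP1 levels rest on the 462 bp of its model. By the deposited FPKM, IGFBP7 also had the highest mean in high-intake-fed liver (16.2 ± 1.17 FPKM). On that scale its range overlapped that of HTRA1 (11.1 ± 8.63 FPKM). In the third high-intake-fed bird HTRA1 was above IGFBP7, at 20.3 against 17.4 FPKM. In normally-fed liver IGFBP4 (25.4 ± 10.2), IGFBP1 (25.2 ± 12.5) and IGFBP7 (23.9 ± 9.004 FPKM) had the highest means. CCN2 stood lower by FPKM, at 7th in high-intake-fed liver (0.752 ± 0.138 FPKM) and 8th in normally-fed liver (2.00 ± 1.04 FPKM), against 5th in high-intake-fed and 4th in normally-fed liver per kilobase.

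IGFBP7, a member that binds IGF weakly and is made by endothelial and stromal cells, had 973, 801 and 929 counts in the high-intake-fed birds. The normally-fed birds had 913, 1337 and 2207 counts. The groups overlapped through the lowest normally-fed bird, and the log2 fold change was -0.69 ± 0.33 SE (edgeR adjusted p = 0.314). The other members of its type and ESM1 were close to the limit of detection and were not tested. KAZALD1 had 2 to 3 counts in high-intake-fed and 2 to 12 in normally-fed birds, and ESM1 had 0 to 2 in high-intake-fed and 1 to 4 in normally-fed birds. The unnamed mac25-type model on scaffold 16 had 0, 2 and 19 counts in the high-intake-fed birds and 3 to 5 in the normally-fed birds, so nearly all of its counts in high-intake-fed liver came from the third bird.

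Among the CCN members, CCN1 and CCN2 are matricellular proteins of injured and growing tissue and are known targets of the co-activator YAP1. CCN1 had 5.21, 5.52 and 6.69 CPM in the high-intake-fed birds, and 6.78, 14 and 13.7 CPM in the normally-fed birds. The groups did not overlap, although the third high-intake-fed and the first normally-fed bird were nearly equal. The log2 fold change was -0.98 ± 0.33 SE with an edgeR adjusted p of 0.169. CCN2 (scaffold 3, 65194149 to 65195961, minus strand) had 12.2, 11.8 and 8.39 CPM in the high-intake-fed birds, and 26.4, 14.5 and 36.5 CPM in the normally-fed birds. Its groups did not overlap either, and its log2 fold change was -1.26 ± 0.35 SE with an edgeR adjusted p of 0.122.

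A second CCN2 model lay 353.3 kb away on the same scaffold (64839057 to 64840869, minus strand), with the same span of 1813 bp and the same coding length of 1044 bp. It held 168 counts in the second normally-fed bird and 0 to 2 in each of the other 5 birds. In that bird it took 40.7% of the counts of both models (95% exact binomial interval 35.9% to 45.6%, counting error only). The 2 models may share reads, so how counts fall between them is uncertain, and the RefSeq annotation has a single CCN2 gene there. By FPKM the second model had 0.514 in the second normally-fed bird and 0.199 in the first high-intake-fed bird, where its count was 0. It had 0 FPKM in each of the other birds. With both models added together, a choice made after seeing the data, CCN2 was 12.2, 11.9 and 8.45 CPM in the high-intake-fed birds, and 26.4, 24.4 and 36.5 CPM in the normally-fed birds. The second normally-fed bird then stood near the first, and the log2 fold change was -1.42 with an edgeR adjusted p of 0.0420. DESeq2 called CCN2 without the second model (log2 fold change -1.24, adjusted p = 0.0310), so the call depends on the test and on the second model.

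**Figure D4:**
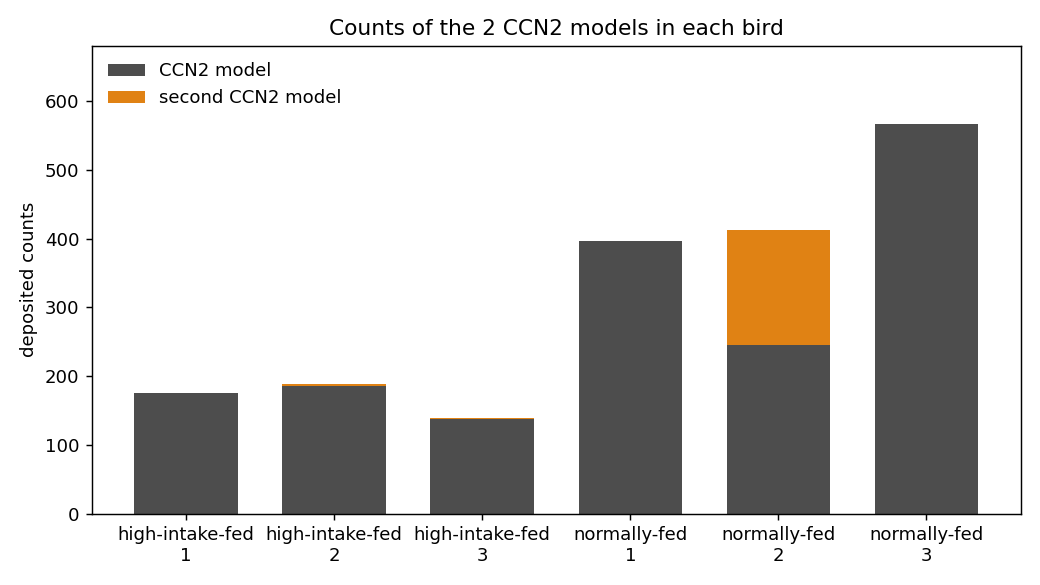
Deposited counts of the CCN2 model (grey) and of the second CCN2 model (orange) in each bird, with the 3 high-intake-fed birds left of the 3 normally-fed birds. The second model is visible with 168 counts in the second normally-fed bird, above 245 counts of the CCN2 model.

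CCN4 had 6 to 12 counts in high-intake-fed and 3 to 16 in normally-fed birds, and the unnamed CCN-type model on scaffold 27 had 2 to 19 counts in high-intake-fed and 9 to 23 in normally-fed birds. Both overlapped between the groups and had a log2 fold change of -0.32, with edgeR adjusted p-values of 0.862 and 0.878. Counts this low give little precision, and the SEs were 0.70 for CCN4 and 0.78 for the unnamed CCN-type model.

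HTRA1, a secreted serine protease that cleaves IGFBP5 and matrix proteins in mammals, was the member with a positive log2 fold change. It had 21.97, 6.67 and 36.8 CPM in the high-intake-fed birds, and 10.2, 6.91 and 3.35 CPM in the normally-fed birds. The first bird and the third high-intake-fed bird were above every normally-fed bird, and the second lay within the normally-fed range. The log2 fold change was 1.68 ± 0.61 SE with an edgeR adjusted p of 0.202, and DESeq2 gave an adjusted p of 0.0430. The table held 3 models described as HTRA1, of which the rule took 1. Added together, they gave a log2 fold change of 1.51 with an edgeR adjusted p of 0.221. HTRA3 had 12 to 32 counts in high-intake-fed and 17 to 71 in normally-fed birds, with a log2 fold change of -1.07 ± 0.59 SE (edgeR adjusted p = 0.383).

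By a looser rule that asked for more than a 2-fold difference and an unadjusted p under 0.05, 5 of the 12 members were lower in high-intake-fed liver (IGFBP1, IGFBP2, IGFBP3, IGFBP4 and CCN2) and 1 was higher (HTRA1). Of all models tested, 5.33% were lower and 4.26% higher by that rule.

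Markers of liver cell types were set beside the members, and edgeR called 0 of them, against 1.47% of all models. Stellate and fibroblast markers (7 of 15 listed matched) summed to 231 to 351 CPM in high-intake-fed and 446 to 556 CPM in normally-fed birds. At an unadjusted p under 0.05, 3 were lower, against 9.71% of all models. Their log2 fold changes were below 0 in 6 of 7, against 47.2% of all models. LUM (0.93) went the other way, with every high-intake-fed bird above every normally-fed bird. DES and TAGLN overlapped between the groups, and DCN and RELN made up most of the stellate and fibroblast sum. The 5 endothelial markers (of 14) summed to 204 to 225 CPM in high-intake-fed and 246 to 382 CPM in normally-fed birds. Among them, VWF (log2 fold change -1.09) and LYVE1 (-0.90) were lower in every high-intake-fed bird. PECAM1 (-0.11), KDR (-0.15) and FLT1 (0.083) overlapped between the groups. The 3 macrophage markers (of 11) summed to 477 to 753 CPM in high-intake-fed and 848 to 1007 CPM in normally-fed birds, and MRC1 and LYZ among them overlapped. Of 10 markers of erythrocytes and thrombocytes, the 4 matched were of erythrocytes (HBA1, HBE1, SLC4A1 and SPTB), and no thrombocyte marker matched. The 4 summed to 545 to 899 CPM in high-intake-fed and 214 to 369 CPM in normally-fed birds. HBA1 and HBE1 made up most of this sum and were higher in every high-intake-fed bird. SLC4A1 and SPTB overlapped between the groups. The sums of hepatocyte and biliary markers overlapped between the groups. For the 7 hepatocyte markers they were 106000 to 255600 CPM in high-intake-fed and 219200 to 308500 CPM in normally-fed birds. ALB made up most of that sum. Hepatocyte log2 fold changes were below 0 in 6 of 7, against 47.2% of all models. FGB (-2.62) and FGG (-1.41) were lower in every high-intake-fed bird, whereas ALB, APOB, TTR, F2 and HPX overlapped between the groups. None of the matched markers was at 0 in all 6 birds. DESeq2 called VWF (endothelial), CD74 (macrophage) and FGG (hepatocyte) lower and HBA1 and HBE1 (erythrocyte) higher. Of all models to which it gave an adjusted p, it called 3.69% lower and 3.36% higher. The part of these cell types in the levels of the members was not tested.

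The genes around the binding proteins were taken from a list of 18 ligands, receptors and growth hormone pathway genes, of which 14 matched a model and 10 were tested. Of these 10, 0 were called by edgeR in either direction, against 1.47% of all models. At an unadjusted p under 0.05, 4 were lower and 1 was higher, against 9.71% lower and 8.67% higher over all models. The median log2 fold change of the 10 was -0.30, against 0.036 over all models. DESeq2 called 3 of the 4 lower ones, IGF2, SOCS1 and CISH. Of the models to which it gave an adjusted p, it called 3.69% lower. The higher one was STAT5B, a transcription factor activated by growth hormone, with a log2 fold change of 0.90 ± 0.33 SE (edgeR adjusted p = 0.206). IGF1, the ligand made by adult liver, and IGFALS, the acid-labile subunit of the circulating complex, matched no model by description and were not analysed here.

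IGF2, the other IGF ligand, named here by its neighbours, had 10.6, 6.41 and 28.8 CPM in the high-intake-fed birds, and 32.6, 63.8 and 56.1 CPM in the normally-fed birds. The third high-intake-fed bird, which was also the highest of its group for IGFBP4, came close to the lowest normally-fed bird. The log2 fold change was -1.73 ± 0.53 SE with an edgeR adjusted p of 0.151. Without that bird it was -2.58 with an adjusted p of 0.0293. With any other bird left out IGF2 was not called, at edgeR adjusted p-values of 0.209 to 0.392.

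IGF1R, the receptor that signals for both IGFs, was also named by its neighbours and had 27.6, 32.9 and 35.9 CPM in the high-intake-fed birds, and 52.2, 46.5 and 50.5 CPM in the normally-fed birds. The groups did not overlap and the birds of each group lay close together, with a log2 fold change of -0.63 ± 0.19 SE (edgeR adjusted p = 0.140). The other receptors overlapped between the groups. IGF2R, named by its neighbours and known to clear IGF2 in mammals but not in birds, averaged 238 ± 32.9 CPM in high-intake-fed and 230 ± 30.4 CPM in normally-fed birds (log2 fold change 0.052 ± 0.24 SE, edgeR adjusted p = 0.935). INSR, the insulin receptor, averaged 86.3 ± 8.25 CPM in high-intake-fed and 84.0 ± 12.5 CPM in normally-fed birds (log2 fold change 0.039 ± 0.21 SE, edgeR adjusted p = 0.943). GHR, the growth hormone receptor, averaged 1277 ± 451 CPM in high-intake-fed and 1036 ± 299 CPM in normally-fed birds (log2 fold change 0.30 ± 0.38 SE, edgeR adjusted p = 0.734).

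SOCS1 and CISH had the smallest p-values of the list. CISH, a feedback inhibitor induced through STAT5, had 9.60, 45.1 and 13.6 CPM in the high-intake-fed birds, and 181, 92.5 and 158 CPM in the normally-fed birds. SOCS1, a feedback inhibitor of JAK kinases, had 2.43, 2.73 and 3.89 CPM in the high-intake-fed birds, and 14.02, 7.62 and 25.7 CPM in the normally-fed birds. In both genes every high-intake-fed bird was below every normally-fed bird, and neither was called in the main edgeR fit. The log2 fold change was -2.66 ± 0.59 SE for CISH (edgeR adjusted p = 0.0739) and -2.38 ± 0.46 SE for SOCS1 (edgeR adjusted p = 0.0524). Without the second high-intake-fed bird, the highest of its group, CISH was called at -3.63 (adjusted p = 0.0147). SOCS1 was called at -2.69 (adjusted p = 0.0489) without the second normally-fed bird, the lowest of its group. With any other bird left out they were not called. The edgeR adjusted p was then 0.0965 to 0.229 for CISH and 0.055 to 0.178 for SOCS1. Without the filter on low counts edgeR called both, at an adjusted p of 0.0262 for CISH and 0.0188 for SOCS1. CISH was also called by limma on log2(CPM + 1) (adjusted p = 0.0435). The other scalings, the stricter filter, the replicate block and limma on log2(FPKM + 1) called neither. SOCS3, a related inhibitor, overlapped between the groups (log2 fold change -0.80 ± 0.45 SE, edgeR adjusted p = 0.393), and SOCS2 was not tested.

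**Figure D5:**
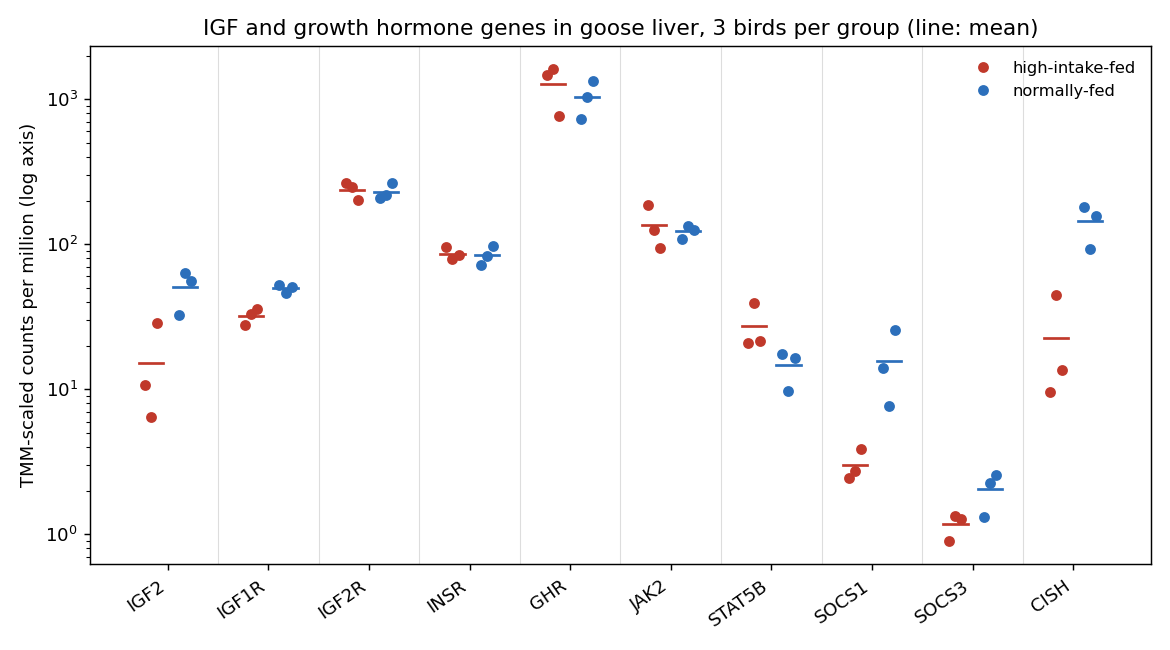
TMM-scaled CPM (log axis) of the 10 IGF and growth hormone genes tested in each bird, with high-intake-fed birds in red to the left of normally-fed birds in blue and a line at each group mean. SOCS1 lay between 2.43 and 3.89 CPM in high-intake-fed and between 7.62 and 25.7 CPM in normally-fed birds, while IGF2R, INSR, GHR and JAK2 overlapped.

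Other genes of the pathway were described from further lists. Of 29 listed genes of insulin and IGF signalling inside the cell, 17 matched and were tested. Of these, 0 were called by edgeR, against 1.47% of all models, and 0 by DESeq2, against 3.69% lower and 3.36% higher. At an unadjusted p under 0.05, 1 was lower and 1 higher, against 9.71% lower and 8.67% higher over all models. The median log2 fold change of the 17 was 0.14. PIK3CB, a catalytic subunit of PI 3-kinase, had the smallest p of that list and averaged 18.3 ± 1.56 CPM in high-intake-fed and 29.9 ± 2.73 CPM in normally-fed birds (log2 fold change -0.71 ± 0.19 SE, edgeR adjusted p = 0.111). RPTOR, the raptor subunit of mTOR complex 1, was next with a log2 fold change of 0.66 ± 0.23 SE (edgeR adjusted p = 0.189). Of 18 proteases that act on IGF binding proteins and their inhibitors, 9 were tested, HTRA1 and HTRA3 among them. edgeR called 0 of them, against 1.47% of all models. At an unadjusted p under 0.05, 2 were lower and 1 higher, against 9.71% and 8.67% of all models. DESeq2 called HTRA1 higher and PLG lower, against 3.36% higher and 3.69% lower over the models to which it gave an adjusted p. Plasminogen (PLG) averaged 1781 ± 121 CPM in high-intake-fed and 3469 ± 149 CPM in normally-fed birds (log2 fold change -0.96 ± 0.29 SE, edgeR adjusted p = 0.140). MMP2, a matrix metalloprotease, had a log2 fold change of -0.86 ± 0.27 SE (edgeR adjusted p = 0.156).

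A list of 17 fasting and glucocorticoid genes of liver gave 6 tested and 0 called by edgeR, against 1.47% of all models. At an unadjusted p under 0.05, 1 was lower and 1 higher, against 9.71% and 8.67% of all models. DESeq2 called both genes, G6PC higher and PPARGC1A lower. Of the models to which it gave an adjusted p, it called 3.36% higher and 3.69% lower. G6PC, which releases glucose from its phosphate, averaged 621 ± 152 CPM in high-intake-fed and 279 ± 102 CPM in normally-fed birds (log2 fold change 1.15 ± 0.36 SE, edgeR adjusted p = 0.152). PPARGC1A, a co-activator of fasting genes, averaged 2.88 ± 1.48 CPM in high-intake-fed and 8.94 ± 3.80 CPM in normally-fed birds (log2 fold change -1.63 ± 0.51 SE, edgeR adjusted p = 0.155). PCK1, the cytosolic enzyme that commits to gluconeogenesis, had 25.0, 0.254 and 3.16 CPM in the high-intake-fed birds, and 80.0, 38.3 and 47.6 CPM in the normally-fed birds. Its groups did not overlap, and its log2 fold change was -2.55 ± 1.11 SE (edgeR adjusted p = 0.275). TAT, a tyrosine-degrading enzyme induced by glucocorticoid, had a log2 fold change of 0.58 ± 0.28 SE (edgeR adjusted p = 0.318).

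Of 19 genes of the YAP and TEAD pathway, 5 were tested and 0 were called by edgeR or DESeq2 or had an unadjusted p under 0.05. Over all models edgeR called 1.47%, and DESeq2 called 3.69% lower and 3.36% higher. At an unadjusted p under 0.05, 9.71% of all models were lower and 8.67% higher. With 5 genes, 0 is close to these shares. YAP1 itself averaged 25.8 ± 5.17 CPM in high-intake-fed and 36.4 ± 5.04 CPM in normally-fed birds, with overlapping groups and a log2 fold change of -0.50 ± 0.22 SE (edgeR adjusted p = 0.282).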

How the data were processed

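Whole-liver RNA of 6 lion-head geese was depleted of rRNA and sequenced as strand-marked libraries. Per the study's methods, reads were filtered, rRNA reads were removed with Bowtie2 and the rest aligned to a goose genome with HISAT2, and the submitters' processing notes also name FastQC and BWA. The authors deposited counts per gene model, not normalized, and FPKM (fragment counts scaled to transcript length and library size) of the same models. The paper names HTSeq under its enrichment methods and StringTie under its lncRNA and circRNA methods. The sources used here do not say which program and strand setting gave the deposited counts, and they do not give the build. The deposited FPKM values were not a fixed multiple of counts per coding kilobase and were used only as an alternative.

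Counts of 12914 models that passed filterByExpr were fitted with edgeR 4.0.16 (TMM, quasi-likelihood F test, no covariate), with Benjamini-Hochberg adjustment over all of them and a threshold of 0.05. SE is the log2 fold change divided by the square root of F. Levels are TMM-scaled CPM, per kilobase where genes were compared. Log2 ratios of neighbouring genes were compared between the groups with exact two-sided permutation tests (SciPy 1.17.1). The procedure was run on counts simulated with the dispersions fitted to these data. Changes were set only in models above a minimum mean level, so the simulation does not cover changes at low counts. DESeq2 1.42.0, limma 3.58.1, other scalings and filters, a replicate block and leaving out each bird were alternatives, with a pseudocount of 1 for log2(CPM + 1) and log2(FPKM + 1).

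Values in every bird were given for members past the threshold, with a fold over 2 and an unadjusted p under 0.05, or with a mean of at least 5 CPM. From each list the genes with the smallest p were named, and IGF2, IGF1R, IGF2R, INSR and GHR in any case. A symbol was matched by description, taking the model with the highest mean, except that IGF2, IGF1R and IGF2R were matched by neighbours. The members and lists were chosen with earlier results of these data known. No sequences were read. Names by neighbours came from the RefSeq gene table of the assembly Taihu_goose_T2T_genome, looking at 15 models on each side and asking for 2 or more shared neighbours.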

Additional observations from a re-analysis of the deposited data

How the results depend on the processing

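IGFBP1 was called lower under all 14 alternative settings, with log2 fold changes of -4.26 to -3.48 and adjusted p-values up to 0.0461. IGFBP2 was called under 13 of them. The number of members called was 2 with edgeR, 5 with DESeq2 (IGFBP4, CCN2 and HTRA1 added), 1 with limma on log2(FPKM + 1), 6 by fold change over 2 with unadjusted p under 0.05, and 2 to 3 with each bird left out. The number of models called was 190 with edgeR, 938 with DESeq2, 41 with limma on log2(FPKM + 1), 335 without the filter, and 30 to 511 with each bird left out. The highest of these came without the third high-intake-fed bird and the lowest without the third normally-fed bird, and the count was 85 without the first high-intake-fed bird, 44 without the first normally-fed bird and 42 without the second. With the replicate block 61 models were called, among them IGFBP1 and IGFBP2 (2 members). The labels name no pairing of the birds. The paper's statistical methods name paired t-tests between the groups but do not say which birds were paired. The block therefore joins birds by sample number alone. Deviations of same-numbered birds correlated at -0.161, 0.0312 and -0.183, and those of differently numbered birds at -0.0829 to 0.22. With 3 birds per group such correlations cannot show whether birds were paired. Of 267 log2 fold changes of members and named genes under alternatives, 242 kept direction and side of the threshold, 16 passed it, 1 no longer passed it, and 8 changed sign. These 8 arose with a bird left out. IGF2R was -0.032 and INSR -0.040 without the first high-intake-fed bird, and the unnamed CCN-type model was 0.19 without the second. Without the first normally-fed bird IGFBP5 was 0.13, the unnamed CCN-type model 0.035, IGF2R -0.018 and INSR -0.060, and CCN4 was 0.051 without the second. Their ranges with each bird left out were -0.032 to 0.20 for IGF2R, -0.060 to 0.19 for INSR, -0.45 to 0.13 for IGFBP5, -0.71 to 0.051 for CCN4 and -0.78 to 0.19 for the unnamed CCN-type model. CCN4 gave no value where at least 1 CPM was asked for in 3 libraries. The cause was not tested. The deposited FPKM was lower than the CPM per kilobase by over 1 SD for 25 of 32 group levels. The 3 birds per group and 4 members with too few counts limit what could be detected.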
